A study of Mus musculus with 6 samples.

Results

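The transcription factors that define the regulatory and helper lineages of CD4+ T cells were read out in CD8+ T cells. The genes are *Foxp3*, *Rora*, *Gata3*, *Maf*, *Irf4*, *Irf8*, *Ikzf2*, and *Ikzf3*. They were chosen by name from a list of such factors, with earlier results of these data known. All 8 were found among the 57126 genes of the deposited count table. The 6 samples were RNA harvested on day 6 of culture from OT-I CD8+ T cells, mouse cells from spleens and lymph nodes whose transgenic receptor recognizes an ovalbumin peptide. All 6 were grown with nano-aAPCs, iron oxide particles that carry the peptide on its MHC-I molecule together with an antibody to CD28. The 3 TEff samples were expanded in IL-2 alone, and the 3 TRM-like samples in IL-2 to which IL-15 and TGF-β were added, the mix used to obtain cells that resemble tissue-resident memory T cells. The expansion protocol gives 5 ng/ml of human IL-2 for both groups, with 100 ng/ml of mouse IL-15 and 5 ng/ml of mouse TGF-β added for the TRM-like cells, whereas the sequencing protocol names mouse IL-2 and no doses. No source says whether the replicates came from separate mice or cultures, so the p-values measure only the spread between these samples. IL-15 and TGF-β were added together, and their parts cannot be told apart.

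Each of these factors is best known from another lymphocyte. Foxp3 directs the regulatory T cell (Treg) program, in which Helios (*Ikzf2*) and Eos (*Ikzf4*) are partners, and TGF-β with IL-2 is the classical signal for Foxp3 in naive CD4+ T cells. RORα (*Rora*) acts in Th17 cells, GATA3 drives Th2 cells and is needed by every T cell in the thymus, and c-Maf (*Maf*) activates IL-4 and IL-10 in several helper subsets. IRF4 is induced by the T cell receptor and is needed for the expansion of CD8+ T cells, IRF8 is its close relative and is best known from dendritic cells and B cells, and Aiolos (*Ikzf3*) is a zinc finger protein of the Ikaros family.

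The libraries held 18319013 to 23622621 reads counted on genes. TRM-like replicates 1 and 2 stood apart from the other 4 libraries, with at least 1 count on 35130 and 35559 genes against 24229 to 24908. Among 1545 olfactory and vomeronasal receptor genes, which T cells are not known to use, 956 and 1012 had a count in those libraries and 46 to 55 in the others. TRM-like replicate 3 was also unlike the other TRM-like replicates over the 14822 genes whose count was 10 or more in each of the libraries, with a median absolute difference of 0.382 and 0.396 on the log2 scale, against 0.127 between replicates 1 and 2. Its difference from TEff replicates 1, 2, and 3 was 0.217, 0.348, and 0.215. The TEff replicates differed from one another by 0.104 to 0.239. Each result below is therefore also given without TRM-like replicate 3 where that changes it. The markers matched the CD8+ T cell label, with *Cd8a* at 421 to 989 CPM (counts scaled to an equal normalized library size) and *Cd3e* at 94.0 to 122 CPM, whereas *Cd4* was at 0 to 0.111 CPM.

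In the TRM-like cells *Maf*, *Irf8*, and *Ikzf3* rose and none of the 8 factors fell. A gene was called when its adjusted p was below 0.05 and its log2 fold change exceeded 0.58 in size, in edgeR's quasi-likelihood test over 26154 genes with Benjamini-Hochberg adjustment. By that rule 3 of the 8 were called, all as higher, against 3.01% of all genes tested in either direction, 1.52% as higher, and 1.48% as lower. Because the 8 were chosen with earlier results of these data known, these shares are no test of the set. Of the 7 with 10 or more counts in each sample, all but *Foxp3*, the same 3 were called, against 3.97% of such genes. The median log2 fold change of the 8 was 0.74, and that of all genes tested was 0.02. In 4 of them, the 3 called genes and *Irf4*, every TRM-like sample lay above every TEff sample, a pattern seen for 10.6% of all genes tested, and for 20.3% with either group on top. Without TRM-like replicate 3, 4 were called, *Ikzf2* being added, all as higher, where 14% of all genes were called and 6.38% as higher. In a comparison of TRM-like replicate 3 alone with the TEff cells, added after the data were seen, 2 were called, *Maf* and *Irf8*. With each other sample left out, 2 or 3 were called. All of these are RNA levels of a whole culture, in which more cells expressing a gene and more RNA per cell cannot be told apart.

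**Figure D1:**
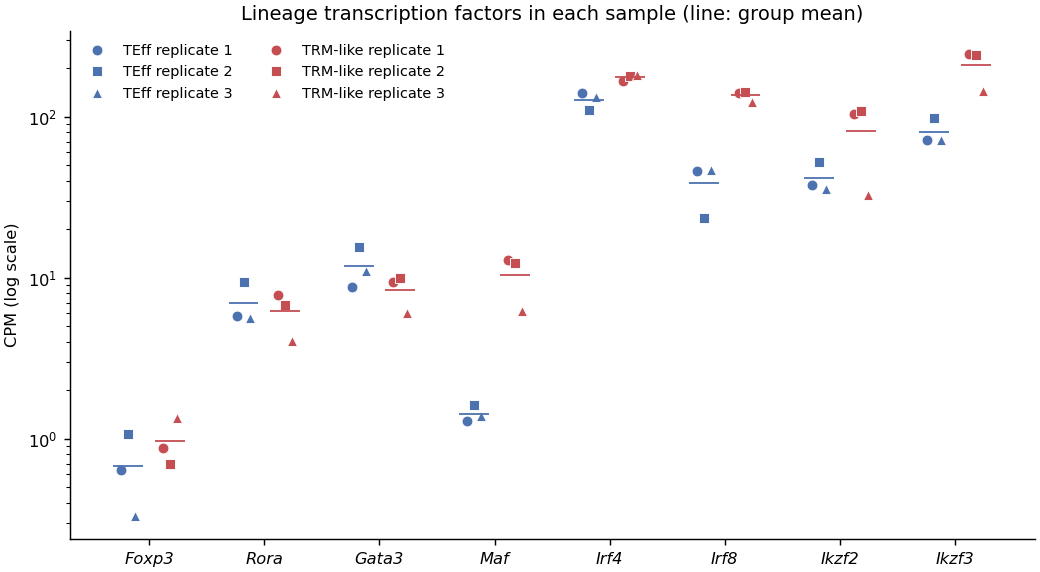
CPM of the 8 lineage factors on a log scale, with 1 point per sample, shape for replicate number, color for group, and a line at each group mean (n = 3). *Maf*, *Irf8*, *Ikzf3*, and *Irf4* have no overlap between the groups, and *Ikzf2* in TRM-like replicate 3 lies at 32.6 CPM, below the TEff samples.

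*Maf* (ENSMUSG00000055435) lies on the minus strand of chromosome 8 of GRCm39, from 116409632 to 116434579. It had the largest difference of the 8 factors. It was at 1.28, 1.62, and 1.38 CPM in TEff replicates 1, 2, and 3, and at 12.8, 12.3, and 6.18 CPM in TRM-like replicates 1, 2, and 3. The lowest TRM-like sample was thus well above the highest TEff sample, and replicate 3 was the lowest of its group. These values rest on 25 to 32 counts per TEff sample and 134 to 294 per TRM-like sample. On the log2 scale *Maf* rose by 2.87 (standard error, SE, 0.31, adjusted p = 0.00188 by edgeR), a 7.30-fold rise with a 95% interval of 4.46 to 11.9. With each sample left out in turn it stayed between 2.70 and 3.13 and past the threshold. It was 2.11 for TRM-like replicate 3 alone (adjusted p = 0.00596 from edgeR), within a range of 5.44e-25 to 0.0241 over the alternatives. Per length, however, *Maf* remained a weakly expressed gene, at 0.229 ± 0.0261 TPM (counts per length, scaled to an equal sum in each sample) in the TEff cells and 1.60 ± 0.472 TPM in the TRM-like cells (SD, n = 3).

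*Irf8* (ENSMUSG00000041515; chromosome 8, plus strand, 121463096 to 121485659) was at 45.8, 23.5, and 46.8 CPM in TEff replicates 1, 2, and 3. In TRM-like replicates 1, 2, and 3 it was at 140, 143, and 124 CPM. The TRM-like replicates differed little here, replicate 3 included, and the low value of TEff replicate 2 was the widest departure within a group. Its rise was 1.81 on the log2 scale (SE 0.25, adjusted p = 0.00510 by edgeR), or 3.50-fold with a 95% interval of 2.38 to 5.16. It was 1.55 to 1.98 with each sample left out, past the threshold each time, and 1.68 for TRM-like replicate 3 alone.

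*Irf4* (ENSMUSG00000021356; chromosome 13, plus strand, 30933209 to 30950959) was already high in the TEff cells, at 140, 111, and 133 CPM. The TRM-like samples held 166, 179, and 182 CPM. All 3 were above the highest TEff sample, but by a small margin. A log2 fold change of 0.46 had a 95% interval of 0.15 to 0.77 and did not pass the threshold (SE 0.14, adjusted p = 0.144 from edgeR). Over the alternatives its adjusted p was 0.0236 to 1, and its log2 fold change of 0.36 to 0.54 stayed below the fold threshold in every one.

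Because *Irf8* rose and its relative *Irf4* was not called, their levels were compared within each sample per length. The ratio of *Irf8* to *Irf4* TPM was 0.455, 0.294, and 0.487 in TEff replicates 1, 2, and 3. In TRM-like replicates 1, 2, and 3 it was 1.17, 1.11, and 0.942. Thus, *Irf8* stood below *Irf4* in all TEff samples and near it in all TRM-like samples, with no overlap between the groups. The pair was chosen for its difference in calls, so this separation is not an independent result. Among the 9 IRF genes, *Irf8* took 4.66% to 10.2% of the summed TPM in the TEff samples and 15.7% to 20.2% in the TRM-like samples.

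**Figure D2:**
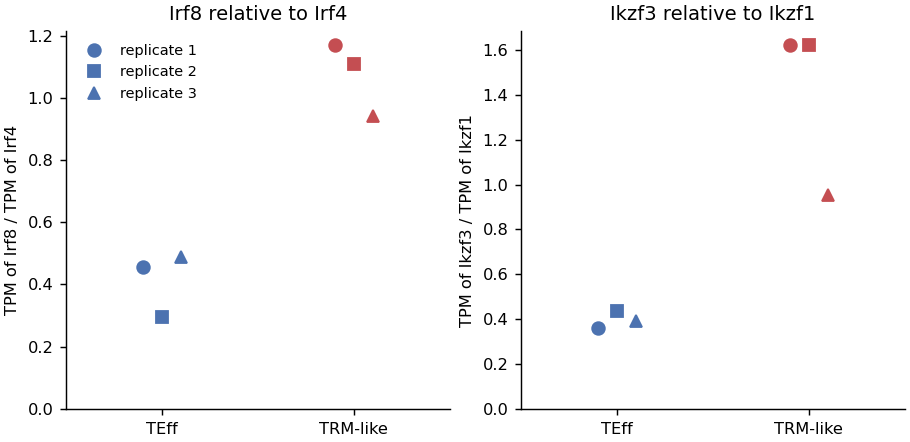
Ratio of *Irf8* to *Irf4* (left) and of *Ikzf3* to *Ikzf1* (right), each as TPM over TPM in the same sample, with 1 point per sample and axes from 0. Both ratios were higher in every TRM-like sample. *Irf8* over *Irf4* was at 0.942 to 1.17 against 0.294 to 0.487, and *Ikzf3* over *Ikzf1* at 0.955 to 1.62 against 0.361 to 0.436. Each pair sets a called gene over a relative that was not called, so neither separation is an independent result.

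The 250 bases before the start of the main GENCODE transcript are shown for *Irf8* and *Maf*, which were called in every fit, and for *Irf4*, the relative that was not called. They were read from GRCm39, 5′ to 3′ on the strand of the gene, and capitals mark matches to 4 motifs searched on both strands. The motifs were CAGAC (the SMAD box, bound by the mediators of TGF-β), TTCNNNGAA (the STAT motif, which IL-2 and IL-15 act through), TGANTCA (AP-1), and the IRF element, searched as a GAAA repeat with 2 bases between.
Irf8, chr8:121462847-121463096, plus strand: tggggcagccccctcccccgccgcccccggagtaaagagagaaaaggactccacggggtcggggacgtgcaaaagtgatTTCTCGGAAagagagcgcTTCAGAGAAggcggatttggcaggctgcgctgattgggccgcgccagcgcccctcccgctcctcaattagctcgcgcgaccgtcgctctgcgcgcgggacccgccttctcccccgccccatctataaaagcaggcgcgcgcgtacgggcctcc
Irf4, chr13:30932959-30933208, plus strand: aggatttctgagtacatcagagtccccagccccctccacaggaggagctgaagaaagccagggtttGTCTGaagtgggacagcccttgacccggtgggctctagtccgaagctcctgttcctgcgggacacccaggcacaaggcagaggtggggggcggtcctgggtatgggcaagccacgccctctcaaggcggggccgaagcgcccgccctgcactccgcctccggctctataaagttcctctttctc
Maf, chr8:116434580-116434829, minus strand: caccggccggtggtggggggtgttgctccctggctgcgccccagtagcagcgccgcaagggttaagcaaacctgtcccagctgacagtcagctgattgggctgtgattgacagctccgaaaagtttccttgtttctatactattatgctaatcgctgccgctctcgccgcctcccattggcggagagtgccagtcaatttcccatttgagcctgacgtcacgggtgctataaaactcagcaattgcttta
The *Irf8* window held the STAT motif at 2 places, 171 to 163 and 153 to 145 bases before the start, and 7.7% of 21770 such windows of coding genes held it at all. The *Irf4* window held 1 SMAD box, a motif present in 41.3% of the windows, and the *Maf* window held none of the 4. Of the windows not shown, those of *Foxp3* and *Rora* held 1 SMAD box each and that of *Ikzf2* held 2, with no other motif. The *Gata3* and *Ikzf3* windows held none of the 4. AP-1 was present in 6.17% and the IRF element in 3.32% of all windows, and in none of the windows of the 8 factors. These are matches of letters in a short window, and binding was not measured.

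*Ikzf3* (ENSMUSG00000018168; chromosome 11, minus strand, 98355728 to 98436857), the gene of Aiolos, was at 71.2, 97.7, and 71.8 CPM in TEff replicates 1, 2, and 3. It was at 244, 240, and 145 CPM in TRM-like replicates 1, 2, and 3. All TRM-like samples were above all TEff samples, and replicate 3 lay between the others and the TEff cells. *Ikzf3* rose by 1.38 on the log2 scale (SE 0.23, adjusted p = 0.0128 by edgeR), or 2.61-fold with a 95% interval of 1.83 to 3.73. The call was less firm than those of *Maf* and *Irf8*. It was lost without TEff replicate 1 (log2 fold change 1.32, adjusted p = 0.102 from edgeR), without TEff replicate 3 (1.33, adjusted p = 0.104), and without TRM-like replicate 2 (1.27, adjusted p = 0.0526), within a range of 9.16e-13 to 0.104 over all alternatives. Without TRM-like replicate 3 the log2 fold change was 1.58.

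*Ikzf2* (ENSMUSG00000025997; chromosome 1, minus strand, 69570373 to 69727004), the gene of Helios, split the TRM-like replicates. It was at 37.6, 52.0, and 35.5 CPM in TEff replicates 1, 2, and 3. In TRM-like replicates 1 and 2 it was at 105 and 108 CPM, and in replicate 3 it was at 32.6 CPM. Replicates 1 and 2 were thus far above the TEff samples and replicate 3 below all of them. Over all samples the log2 fold change was 0.97 with a 95% interval of 0.09 to 1.85 and was not past the threshold (SE 0.39, adjusted p = 0.286 from edgeR). Without TRM-like replicate 3 it was 1.34 and past the threshold (adjusted p = 2.87e-05 from edgeR, within a range of 1.58e-06 to 0.850 over all alternatives), and for TRM-like replicate 3 alone it was -0.36. The number of genes with a count separated the same replicates, and its part in this difference was not tested.

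The Ikaros genes encode zinc finger proteins that pair with one another, so their proportions were also compared. *Ikzf4*, the gene of Eos, rose from 5.03, 3.85, and 4.03 CPM in the TEff samples to 15.4, 16.0, and 22.2 CPM in TRM-like replicates 1, 2, and 3. This rise of 2.05 on the log2 scale (SE 0.20, adjusted p = 0.00123 by edgeR) was past the threshold in 6 of 6 fits that left out a sample. *Ikzf1*, the gene of Ikaros and the most abundant of the family in the TEff cells, was at 438 to 536 CPM there and at 354 to 362 CPM in the TRM-like cells, a log2 fold change of -0.43 that missed the threshold (adjusted p = 0.172, edgeR). *Ikzf5* had a log2 fold change of -0.07. Of the summed TPM of the 5 genes, *Ikzf3* held 23.6% to 27.2% in the TEff samples and 42.9% to 53.4% in the TRM-like samples. *Ikzf1* held 62.4% to 65.5% and 32.6% to 44.9%. These shares follow from the levels of *Ikzf3* and *Ikzf1* already given and are not an independent result. The share of *Ikzf2* was 4.75% to 5.55% in the TEff samples, 8.77% and 9.14% in TRM-like replicates 1 and 2, and 3.71% in replicate 3.

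**Figure D3:**
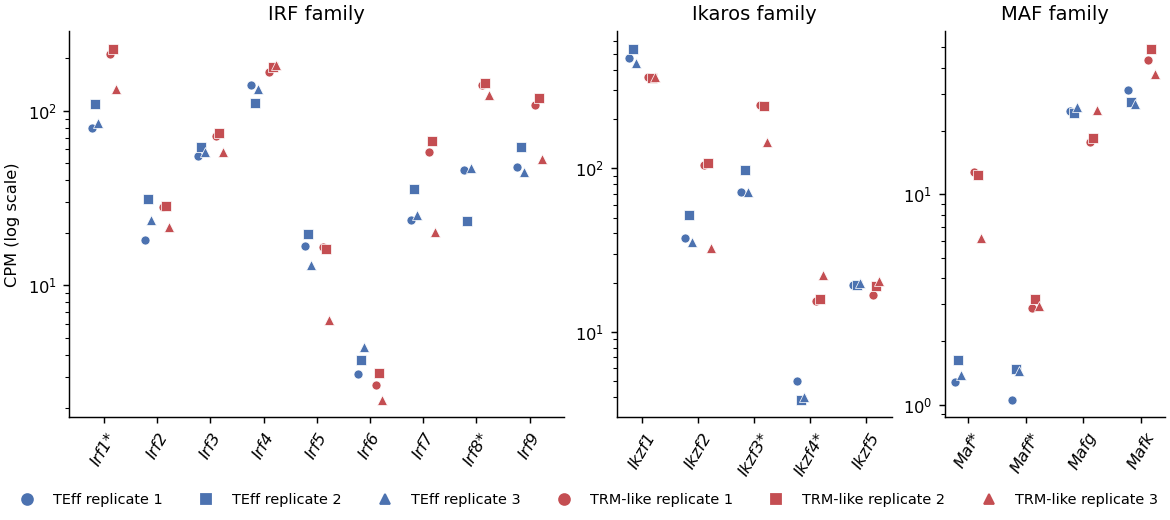
CPM on a log scale of the IRF genes, the Ikaros genes, and the 4 well-detected MAF genes in each sample, with shape for replicate number and color for group. An asterisk marks genes past the threshold, which are *Irf1*, *Irf8*, *Ikzf3*, *Ikzf4*, *Maf*, and *Maff*, all higher in the TRM-like cells.

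*Foxp3* (ENSMUSG00000039521; chromosome X, plus strand, 7439883 to 7461484) was at the bottom of the 8 factors. It had 14, 21, and 6 counts in TEff replicates 1, 2, and 3, and 20, 16, and 29 in TRM-like replicates 1, 2, and 3. These are 0.640, 1.06, and 0.332 CPM in the TEff cells and 0.872, 0.699, and 1.34 CPM in the TRM-like cells, and the groups overlapped. The log2 fold change of 0.50 had a 95% interval of -0.54 to 1.54 (adjusted p = 0.682 from edgeR), which spans a fall to 0.689-fold and a rise to 2.90-fold, so that a difference was not detectable at this depth. Per length, *Foxp3* was 8.74 and 6.57 times the mean of the olfactory and vomeronasal receptor genes in TRM-like replicates 1 and 2, and 28.7 to 114 times it in the other 4 libraries.

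The *Foxp3* locus is crowded, which could bear on its counts. In the later GENCODE annotation used here, 31.5% of its exon bases were shared with exons of other genes in the table, against 0% to 8.4% for the other 7 factors. The neighbors are *Flicr*, a long noncoding RNA on the same strand, and *Ppp1r3f*, *Ccdc22*, and *Gm36995* on the opposite strand. *Flicr* had 2 to 11 counts per sample, and *Ccdc22* was listed at 0 in every sample. Whether reads were counted by strand is not given in the sources used here, so the share of *Foxp3* reads lost to or gained from these neighbors was not tested.

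*Rora* (ENSMUSG00000032238; chromosome 9, plus strand, 68561068 to 69295528) was at 5.81, 9.42, and 5.64 CPM in TEff replicates 1, 2, and 3 and at 7.81, 6.73, and 4.06 CPM in TRM-like replicates 1, 2, and 3. The groups overlapped. Between the groups the log2 fold change was -0.16, with a 95% interval of -0.82 to 0.49 (adjusted p = 0.852 from edgeR). It was 0.06 without TRM-like replicate 3, which had the lowest value of all samples, and 0.11 without TEff replicate 2, which had the highest.

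*Gata3* (ENSMUSG00000015619; chromosome 2, minus strand, 9861889 to 9894845) was at 8.73, 15.5, and 11.0 CPM in the TEff samples and at 9.38, 9.92, and 5.99 CPM in TRM-like replicates 1, 2, and 3. The groups overlapped, and TRM-like replicate 3 was again the lowest sample. The log2 fold change of -0.48 had a 95% interval of -1.07 to 0.11 (adjusted p = 0.466 from edgeR), which leaves room for a fall to 0.478-fold. Over the alternatives it was -0.97 to -0.23 and never past the threshold.

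**Figure D4:**
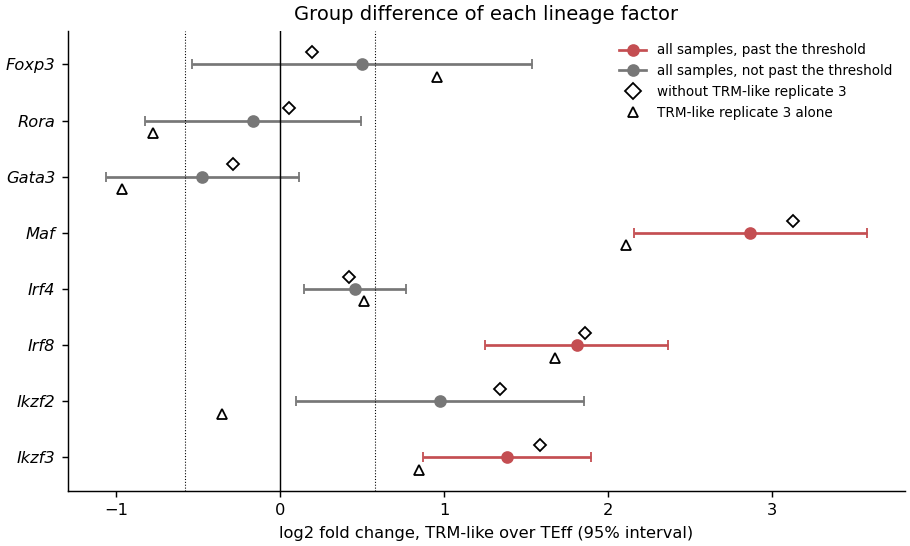
Log2 fold change of each factor in the TRM-like over the TEff cells, with filled points and 95% intervals from all 6 samples, diamonds without TRM-like replicate 3, and triangles for that replicate alone. Dotted lines mark 0.58 in each direction, and *Ikzf2* moves from 1.34 without replicate 3 to -0.36 for replicate 3 alone.

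Levels of the factors were ordered per length. In the TEff cells *Irf4* was the highest, at 35.5 ± 4.56 TPM, and its range overlapped that of *Ikzf3*, at 29.0 ± 5.33 TPM. *Irf8* followed at 14.9 ± 5.13 TPM, then *Ikzf2* at 5.78 ± 1.23 TPM and *Gata3* at 4.82 ± 1.37 TPM, whose ranges overlapped. *Rora* was at 0.818 ± 0.247 TPM, and *Maf* and *Foxp3* were last at 0.229 ± 0.0261 and 0.219 ± 0.118 TPM, overlapping each other (SD, n = 3 for each). In the TRM-like cells *Ikzf3* was the highest, at 72.8 ± 14.6 TPM. *Irf8* at 50.7 ± 1.53 TPM and *Irf4* at 47.7 ± 6.03 TPM overlapped. Below them came *Ikzf2* at 10.7 ± 5.05, *Gata3* at 3.33 ± 0.578, *Maf* at 1.60 ± 0.472, *Rora* at 0.700 ± 0.183, and *Foxp3* at 0.312 ± 0.138 TPM, each apart from its neighbors. *Maf* thus passed *Rora* between the groups, and *Ikzf3* and *Irf8* moved above or level with *Irf4*.

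The factors were compared in their course over the 6 samples, apart from *Foxp3*, which had fewer than 10 counts in a sample. Among these 7, the closest pairs in log2 CPM were *Maf* with *Ikzf3* (Pearson's r = 0.984) and *Irf4* with *Irf8* (r = 0.973), and *Rora* and *Gata3* shared theirs (r = 0.862). These values describe 6 samples in 2 groups, and a group difference alone makes such values high. Among the 14821 other genes that had 10 or more counts in each sample, those most like *Maf* were *Lonp2* (r = 0.999) and *Vipr2* (r = 0.999), and those most like *Ikzf3* were *Tgtp1* (r = 0.999) and *Smpd5* (r = 0.997). *Afdn* and *Fmnl3* were most like *Irf8* (r = 0.996 and 0.995), and *Atp5pb-ps* and *Srebf1* most like *Irf4* (r = 0.997 and 0.996). For *Ikzf2* they were *Gm16741* and *4930537H20Rik* (r = 0.999 and 0.998), for *Gata3* *Gm24727* and *Ikbke* (r = 0.992 and 0.989), and for *Rora* *Gm36999* and *Fam13b* (r = 0.996 and 0.994).

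Of the other genes of the FOXP, ROR, GATA, MAF, IRF, and Ikaros families, 22 of 26 were tested, 3 rose, and none fell, against 1.52% of all genes called as higher and 1.48% as lower. Besides *Ikzf4*, these were *Irf1*, an early target of interferons, and *Maff*, a small MAF protein without an activation domain. *Irf1* was at 79.1, 109, and 84.8 CPM in the TEff samples and at 212, 226, and 133 CPM in TRM-like replicates 1, 2, and 3 (log2 fold change 1.07, adjusted p = 0.0352 from edgeR). *Maff* rose from 1.05 to 1.47 CPM in the TEff samples to 2.88 to 3.19 CPM in the TRM-like samples (log2 fold change 1.19, adjusted p = 0.0362 from edgeR). Without any 1 sample other than TRM-like replicate 3, only *Ikzf4* of the 26 was called. Without TRM-like replicate 3, 6 were called, *Mafk*, *Irf7*, and *Irf9* being added, where 14% of all genes were called. The median log2 fold change of the 22 was 0.50, and 0.48 with genes at 0 in a group set at a floor of 3 counts over that group.

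Of 26 factors that act with these proteins, 3 rose and 2 fell, against 3.01% of all genes called, with a median log2 fold change of -0.18. *Ahr*, the aryl hydrocarbon receptor of Th17 cells, rose from 0.709 to 1.05 CPM in the TEff samples to 34.02, 30.5, and 54.7 CPM in TRM-like replicates 1, 2, and 3 (log2 fold change 5.42, adjusted p = 7.69e-05 from edgeR). *Jun*, an AP-1 subunit that binds with IRF4 and BATF, rose by 1.86 (adjusted p = 0.00376). *Runx1* fell by 2.90 in log2 units (adjusted p = 0.00301), from 3.59 to 7.39 CPM to 0.507 to 0.786 CPM. *Zbtb7b*, the gene of ThPOK that sets the CD4+ helper fate, fell by 0.82 (adjusted p = 0.0335) and kept its call in 2 of 6 fits that left out a sample. Without TRM-like replicate 3, 9 of the 26 were called, against 14% of all genes, *Runx3* and *Gfi1* being added as higher and *Lef1* and *Bach2* as lower.

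The genes named for the Treg program moved in both directions, with 5 higher and 3 lower of 19 tested and a median log2 fold change of -0.04. Of all genes tested, 1.52% were called as higher and 1.48% as lower. *Itgae*, the gene of CD103, rose by 4.57 (adjusted p = 0.000447 from edgeR), and *Nt5e*, the gene of CD73, by 2.55, from 19.1, 28.7, and 20.8 CPM to 135, 146, and 121 CPM in TRM-like replicates 1, 2, and 3 (adjusted p = 0.000209). *Entpd1*, the gene of CD39, which makes the substrate of CD73, rose by 1.00, *Capg* by 1.20, and *Ikzf4* as given above. *Ctla4* fell by 1.18 (adjusted p = 0.00264), *Nrp1*, a semaphorin receptor of thymic Treg cells, by 2.89, and *Izumo1r*, the folate receptor 4 gene, by 2.42. *Il2ra*, the gene of CD25, was at 121, 120, and 271 CPM in TRM-like replicates 1, 2, and 3 and at 213 to 315 CPM in the TEff samples (adjusted p = 0.394), and was lower past the threshold without replicate 3. *Il10* was at 0.152 to 0.274 CPM in the TEff samples and 0.218 to 0.611 CPM in the TRM-like samples and was not called. *Capg* lost its call in 3 of 6 fits that left out a sample and *Entpd1* in 1.

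The products that define Th17 and Th2 cells were at or near 0. *Il17a* had a count in TRM-like replicate 1 alone, at 0.0872 CPM, *Il17f* was at 0 to 0.0922 CPM, and *Il4* at 0 to 0.0922 CPM, with each of the 3 at 0 in all TEff samples. *Il5* was at 0 to 0.175 CPM and *Il13* at 0 to 0.277 CPM. Of the Th17 list 8 of 15 genes were tested, with a median of 0.12, beside 3.01% of all genes called. *Ahr* rose, while *Ccr4* and *Ltb4r1*, both chemoattractant receptors, fell by 3.04 and 3.32 in log2 units (adjusted p = 0.00458 and 0.00125, edgeR). *Il23r* was at 1.00 CPM in TRM-like replicates 1 and 2, at 0.0461 CPM in replicate 3, and at 0 to 0.137 CPM in the TEff samples, and was past the threshold only without replicate 3. Of the Th2 list 12 of 16 genes were tested, with a median of -0.04, beside the same 3.01% of all genes called. *Ccr8*, a chemokine receptor of Th2 and skin-homing cells, rose by 4.37 (adjusted p = 0.000944), from 0.354 to 0.732 CPM to 12.1, 15.1, and 6.18 CPM in TRM-like replicates 1, 2, and 3. *Il1rl1*, the gene of the IL-33 receptor, fell by 2.76 (adjusted p = 0.0130, a call kept in 3 of 6 fits that left out a sample), and *Ccr4*, also in this list, fell as given above.

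Of the Th1 list 14 of 14 genes were tested, and *Cxcr3*, a chemokine receptor, fell by 1.21 (adjusted p = 0.00543 from edgeR), with a median of 0.07. *Il18r1* and *Il18rap*, the chains of the IL-18 receptor, fell by 2.08 and 1.83 (adjusted p = 0.000254 and 0.000392). *Tbx21*, the gene of T-bet, was at 49.1 to 63.8 CPM in the TEff samples and 33.1 to 55.1 CPM in the TRM-like samples (adjusted p = 0.625), and *Ifng* was at 1.47 to 3.57 and 0.415 to 3.93 CPM. Of the Tfh list 10 of 12 genes were tested, with a median of -0.84, and *Slamf6*, *Btla*, and *Icos* fell by 3.27, 1.20, and 0.94. *Bcl6*, its master factor, was at 4.26 to 8.10 CPM in the TEff samples, at 5.19 and 5.15 CPM in TRM-like replicates 1 and 2, and at 0.369 CPM in replicate 3 (adjusted p = 0.675). *Cxcr5* was at 0.995 to 1.87 CPM in the TEff samples and 2.08 to 6.29 CPM in the TRM-like samples (adjusted p = 0.0770). It was called by DESeq2 and, without TRM-like replicate 3, by edgeR as higher by 2.07. Over the 5 lists together, 20 of 61 genes tested were called, 8 higher and 12 lower, beside the 3.01% of all genes. In the fit without TRM-like replicate 3, 31 were called, beside 14% of all genes, with 6 higher and 6 lower in the Treg list, 2 and 3 in the Th17 list, 1 and 2 in the Th2 list, 3 and 4 in the Th1 list, and 1 and 5 in the Tfh list, genes of 2 lists counting in each.

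**Figure D5:**
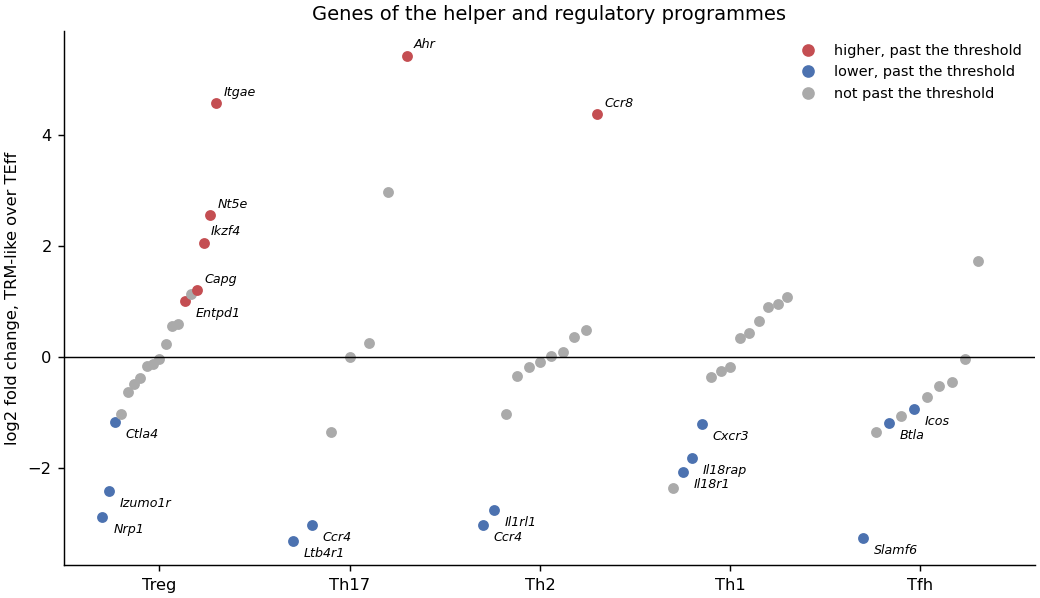
Log2 fold change of the genes of 5 program lists in the TRM-like over the TEff cells, with 1 point per gene shown, tested and detected in both groups, ordered within each list. Red and blue points with names passed the threshold, among them *Ahr* at 5.42 and *Slamf6* at -3.27, and genes in 2 lists appear in each.

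Markers of other cells that carry these factors were measured in the same samples. Of all genes tested, 3.01% were called with all 6 samples and 14% without TRM-like replicate 3. In lists this short, the lack of a call therefore says little. *Irf8* is abundant in dendritic cells and B cells. Of the dendritic cell list, 8 of 10 genes were tested, and with all 6 samples none rose and *Batf3* fell. *Cd74* was also called, as higher by 1.30, without TRM-like replicate 3, and *H2-Ab1* as lower, with a log2 fold change of -0.65. The summed level of the list was 20.8 to 33.99 TPM in the TEff samples and 14.0 to 19.6 TPM in the TRM-like samples. Most of it was *H2-Ab1*, with means of 15.76 TPM (TEff) and 11.97 TPM (TRM-like), and *Batf3*, with 9.32 and 0.424 TPM. *Itgax*, *Zbtb46*, and *Xcr1* were also lower in mean, and rarer genes went the other way. *H2-Aa* had 0, 2, and 0 counts in the TEff samples and 5, 9, and 2 in the TRM-like samples. *Flt3* had 0, 1, and 0 against 3, 6, and 0, and neither was called. *Clec9a* had 8, 3, and 0 counts in TRM-like replicates 1, 2, and 3, and *Siglech* 5, 2, and 0. Both had 0 in every TEff sample. The B cell list held 6.53 to 7.36 and 7.66 to 9.75 TPM, and none of its 6 tested genes was called with all samples. Its untested genes were *Ms4a1*, with 2 counts in TRM-like replicate 2 alone, and *Pax5*. *Pax5* had 14, 10, and 0 counts in TRM-like replicates 1, 2, and 3 and 0 in every TEff sample. *Cd79b* was called as higher by 0.59 without TRM-like replicate 3. The macrophage and monocyte list held 4.24 to 4.802 TPM in the TEff samples and 3.51 to 7.02 TPM in the TRM-like samples. Its member *Cx3cr1*, which T cells also express, rose. It kept its call in 1 of 6 fits that left out a sample, the one without TRM-like replicate 3. *Lyz2* had 14 counts (0.612 CPM) in TRM-like replicate 2 and 0 in every other sample. *Fcgr1* had 9, 5, and 1 counts in TRM-like replicates 1, 2, and 3 and 0 in the TEff samples, and was not called. Without replicate 3 *Adgre1* was called as well, as higher by 3.44. That value rests on few reads, with 1, 0, and 0 counts in the TEff samples and 5, 6, and 0 in TRM-like replicates 1, 2, and 3. The mast cell and basophil list held 1.31 to 1.88 TPM in the TEff samples, 14.1 and 12.1 TPM in TRM-like replicates 1 and 2, and 1.80 TPM in replicate 3. Of that list *Kit* rose, with the same dependence on replicate 3, at 55.2, 49.6, and 5.95 CPM in TRM-like replicates 1, 2, and 3, while *Fcer1a* was at 0 in every sample. The NK cell and innate lymphoid cell list held 59.9 to 107 and 12.4 to 51.8 TPM, with *Il1rl1* lower and none higher over all samples. Most of these sums was *Il7r*, with a mean of 65.7 TPM in the TEff and 23.1 TPM in the TRM-like samples. The sums thus mainly follow that gene, and *Tyrobp* went the other way, with means of 2.08 and 12.1 TPM. *Tyrobp* was called as higher by 3.15 without TRM-like replicate 3, and *Klrb1c* and *Il7r* as lower, with log2 fold changes of -0.94 and -1.05. The CD4+ T cell list held 10.1 to 11.2 and 5.32 to 6.33 TPM, and *Zbtb7b* accounted for its call. Of the CD8+ T cell list *Cd8a* rose and the other 7 genes were not called with all samples, and *Cd3g* was called as higher by 1.08 without TRM-like replicate 3.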

How the data were processed

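RNA sequencing was analysed in 3 TEff and 3 TRM-like samples, grouped by the sample titles. The authors trimmed reads with Cutadapt 4.8 and used Rsubread, with GRCm39 and its GENCODE genes, for mapping and counting. Raw counts and the length of every gene in bases were deposited. The strand setting and the handling of reads that map to several places are not given in the sources used here, and gene counts do not separate isoforms. Symbols and coordinates came from GENCODE M39 of the same build, which held 56620 of the 57126 genes. The sequences came from the same genome build.

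A gene was tested if 3 or more samples had a count on it, in R 4.3.3 with the quasi-likelihood test of edgeR 4.0.16 after TMM normalization, with the group as the only term. CPM values use the TMM library sizes, and TPM values use the deposited gene lengths. The standard error is the log2 fold change divided by the square root of F. For correlations, log2 CPM had a prior count of 2. The study removed a batch that its text does not name, so none was removed. The tests were checked on simulated data in which 200 genes, each with a mean of 10 or more counts, were changed 4-fold. Of these, edgeR recovered 85%, and 6.59% of its calls were false. For DESeq2 these values were 84.5% and 16.7%, and for limma-voom 84% and 7.18%.

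The 8 factors and the gene lists were chosen with earlier results of these data known. The genes named are the 8 factors, the called genes of the lists (at most 6 per program list by smallest p), and the defining product of each program. For each factor, the 2 genes most like it are also named. *Capg*, *Entpd1*, and some cell markers, among them those called without TRM-like replicate 3, were added after their values were seen. Some genes of the lists are not reported here, though counts and medians include them. The number of reads per gene limits the precision, as given beside each low value. Alternatives were DESeq2 1.42.0, limma-voom (limma 3.58.1), other normalizations and filters, other thresholds, a replicate block, and fits without each sample.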

Additional observations from a re-analysis of the deposited data

How the results depend on the processing

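*Maf* and *Irf8* kept their direction and stayed past the threshold in all 17 alternatives each, and *Foxp3*, *Gata3*, and *Irf4* stayed short of it in 15, 17, and 17. *Ikzf3* kept its direction but lost the threshold in 5 of 17, of which glmTreat against a 1.5-fold change gave an adjusted p of 0.0678 and TRM-like replicate 3 alone 0.0657. *Ikzf2* passed it in 3 and turned to -0.36 for TRM-like replicate 3 alone. *Rora* turned to 0.11 without TEff replicate 2 and to 0.06 without TRM-like replicate 3. Counts of called genes, 786 in the reported fit, were 263 to 3579 with a sample left out, the highest without TRM-like replicate 3. The number was 1264 with DESeq2, 1868 with no filter, 339 with glmTreat, and 2034 when the replicate number was a block. For the lineage factors, no alternative moved the count of 3 beyond 2 to 4. Relatives of the factors, 3 as reported, were 1 to 6 with a sample left out, 7 with no filter, 1 with glmTreat, 7 with the block, and 5 with the block over genes that had 10 or more counts in each sample. Partner factors, 5 as reported, were 8 with DESeq2, 9 with no filter, 10 with the block, 8 with the block over those genes, 9 for TRM-like replicate 3 alone, and 4 to 9 with a sample left out. Program genes, 20 as reported, were 31 with no filter, 33 with the block, and 17 to 31 with a sample left out. The cause of these shifts was not tested.

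With no filter and with the block over all genes, the prior degrees of freedom of edgeR were infinite. The same-numbered samples deviated together with a correlation of -0.292, 0.309, and 0.389 for numbers 1, 2, and 3, and of 0.194 over all. With 3 samples per group, these values cannot decide whether the numbers pair the samples. In the fit with the block, *Ikzf2* had a log2 fold change of 0.82 and was past the threshold, and no other factor changed its call. With the block over genes with 10 or more counts, *Ikzf2* was at 0.83 and not past it (adjusted p = 0.103 by edgeR). The block over genes with at least 10 counts and the comparison of TRM-like replicate 3 alone were chosen after the data were seen, and the latter leaves 1 sample assumed to vary like the TEff cells. *Foxp3* rests on 6 to 29 counts per sample, which allows only large differences to be seen.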
